A study of Mus musculus with 8 samples.

Results

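Contractile smooth muscle genes encode the actin and myosin filaments of the arterial wall, the proteins that regulate them, and the cytoskeleton that ties them to the cell surface. The 29 genes described here were taken by name from the probe annotation of the arrays, which holds 36492 gene names. All 29 were found, with 42 probes among the 55681 that were not controls, and 3 of their 60 spots were left out on 1 array because they lay in a locally dim area. Gene expression was compared between wire-injured carotid arteries of miR-126-/-/ApoE-/- mice and of miR-126+/+/ApoE-/- mice (n = 4 mice each, 1 array per mouse). Both genotypes lack apolipoprotein E, and the mice were female, labelled as 6 weeks old, on a mixed genetic background and a western-type diet. Arteries were taken 14 days after injury. The labels do not say which cells lose miR-126 or how the allele was made, and the RNA came from whole artery. In such bulk RNA, fewer cells of a type and less RNA per cell cannot be told apart.

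In the healthy artery, smooth muscle cells contract when calcium activates myosin light chain kinase, and relax when myosin phosphatase removes the phosphate again. Serum response factor and its coactivator myocardin drive many of these genes through a promoter element called the CArG box. After injury, smooth muscle cells can lower the contractile programme, divide and secrete matrix, and the level of these genes is commonly read as a measure of that switch. miR-126 is made mainly by endothelial cells, from an intron of Egfl7.

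Several sequences bear on the measurements. One is the mature strand that the deleted locus encodes (RefSeq, GRCm38.p6, chr2:26591402-26591423, plus strand), with its seed, bases 2 to 8, in capitals.
mmu-miR-126a-3p: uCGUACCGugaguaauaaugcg

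Others are array probes to which results for single genes below refer. They are given as deposited, with positions on build mm9: Vcl chr14:21848574-21849035 (plus strand, across an intron), Synpo2 chr3:122815498-122815557 (minus strand), Pdlim7 chr13:55610290-55610349 (minus strand) and Des chr1:75363404-75363629 (plus strand, across an intron). The Vcl probe replaced one that was lost to the dim area. The Synpo2 and Pdlim7 probes were the only member probes whose genotypes did not overlap, and neither stands for its gene in the main comparison. The Des probe had a spot next to the dim area.
Vcl: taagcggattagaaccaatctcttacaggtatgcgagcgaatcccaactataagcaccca
Synpo2: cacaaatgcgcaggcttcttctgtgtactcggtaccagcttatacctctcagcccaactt
Pdlim7: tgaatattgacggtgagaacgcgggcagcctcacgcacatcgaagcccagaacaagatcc
Des: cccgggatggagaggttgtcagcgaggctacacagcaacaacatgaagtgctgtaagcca

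Also shown are the promoters in which a CArG box was found, in the 250 bases before the gene start (RefSeq, GRCm38.p6). The element was searched on both strands as CC, then 6 letters that are each A or T, then GG, without mismatch, and it stands in capitals. It was found for 3 of the 25 member genes with a listed promoter (12%), against 1.62% of 27025 genes. It began 161 bases before the start of Myl9 (chr2:156775214-156775463, plus strand), 227 before Vcl (chr14:20929148-20929397, plus strand) and 102 before 1 listed start of Fhl1 (chrX:56779433-56779682, plus strand). The other listed promoters of the group have no exact match in this window, which says nothing of elements with a mismatch or farther away. Actg2, Myocd, Myh11 and Tagln had no listed promoter and were not searched.
Myl9: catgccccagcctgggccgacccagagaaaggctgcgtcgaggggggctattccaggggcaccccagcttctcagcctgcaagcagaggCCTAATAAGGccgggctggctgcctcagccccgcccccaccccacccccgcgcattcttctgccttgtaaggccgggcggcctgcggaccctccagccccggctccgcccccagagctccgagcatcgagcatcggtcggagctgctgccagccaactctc
Vcl: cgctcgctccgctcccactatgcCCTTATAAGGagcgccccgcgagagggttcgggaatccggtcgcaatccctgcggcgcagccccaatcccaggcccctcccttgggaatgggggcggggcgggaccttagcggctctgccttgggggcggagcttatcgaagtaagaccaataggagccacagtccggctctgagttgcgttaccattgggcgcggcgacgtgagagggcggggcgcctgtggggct
Fhl1: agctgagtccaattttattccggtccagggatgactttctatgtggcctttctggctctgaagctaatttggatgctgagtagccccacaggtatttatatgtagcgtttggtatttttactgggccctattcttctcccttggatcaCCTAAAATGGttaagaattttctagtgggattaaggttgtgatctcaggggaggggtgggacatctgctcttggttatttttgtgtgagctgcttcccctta

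The arrays were similar by array-wide measures, which do not show a local fault such as the dim area of miR-126-/- 4. Outlier spots numbered 216 on that array and 146 to 176 on the others. The 75th percentile of signal was 578.5 to 714.5 intensity units for miR-126-/- and 518.2 to 736.1 units for miR-126+/+, 55.9% to 61.5% of probes were well above background, and correlations between arrays ran from 0.962 to 0.988. The number of arrays limits the precision. All arrays were on 1 slide read in 1 scan, with miR-126-/- in slide row 2 and miR-126+/+ in slide row 1, so that a difference between the rows and one between the genotypes cannot be told apart. Egfl7, the host gene, had a log2 signal of 6.50 ± 0.18 in miR-126-/- mice and 6.01 ± 0.17 in miR-126+/+ mice (SD, n = 4 each; limma, adjusted p = 0.250), and its probe is not known to lie in the deleted part, so it checks nothing about the labels. Apoe, deleted in both genotypes, was well above background on all 8 arrays, at 2.31 to 2.97 in miR-126-/- mice and 1.20 to 2.40 in miR-126+/+ mice (difference 0.62 ± 0.27, SE; limma, adjusted p = 0.491), with the position of its probe relative to the deleted part not known either. All levels below are log2 signals relative to the array's 75th percentile, and differences are miR-126-/- minus miR-126+/+.

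All 29 contractile genes were well above background on every array that gave a value, among them the smooth muscle markers Acta2, Myh11, Tagln and Cnn1. None passed the test for a genotype difference (limma, adjusted p from 0.433 to 0.997 over 23828 genes), where 0.063% of all genes were called higher and 0.0671% lower. Most lay slightly higher in miR-126-/- arteries: 24 of 29 fitted differences were above 0, against 50.7% of all genes, and the median difference was 0.15, against 0.00 over all genes. At an unadjusted p under 0.05, 1 member was higher (3.45% of 29, against 6.62% of all genes) and 0 were lower (3.61% of all genes). For 0 members did the genotypes fail to overlap, as they did with miR-126-/- higher for 3.96% of all genes and lower for 2.45%. The 95% interval lay within 1 log2 unit either way for 26 members, so that a 2-fold difference lies outside it, and reached past that for Casq2, Des and Lmod1.

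**Figure D1:**
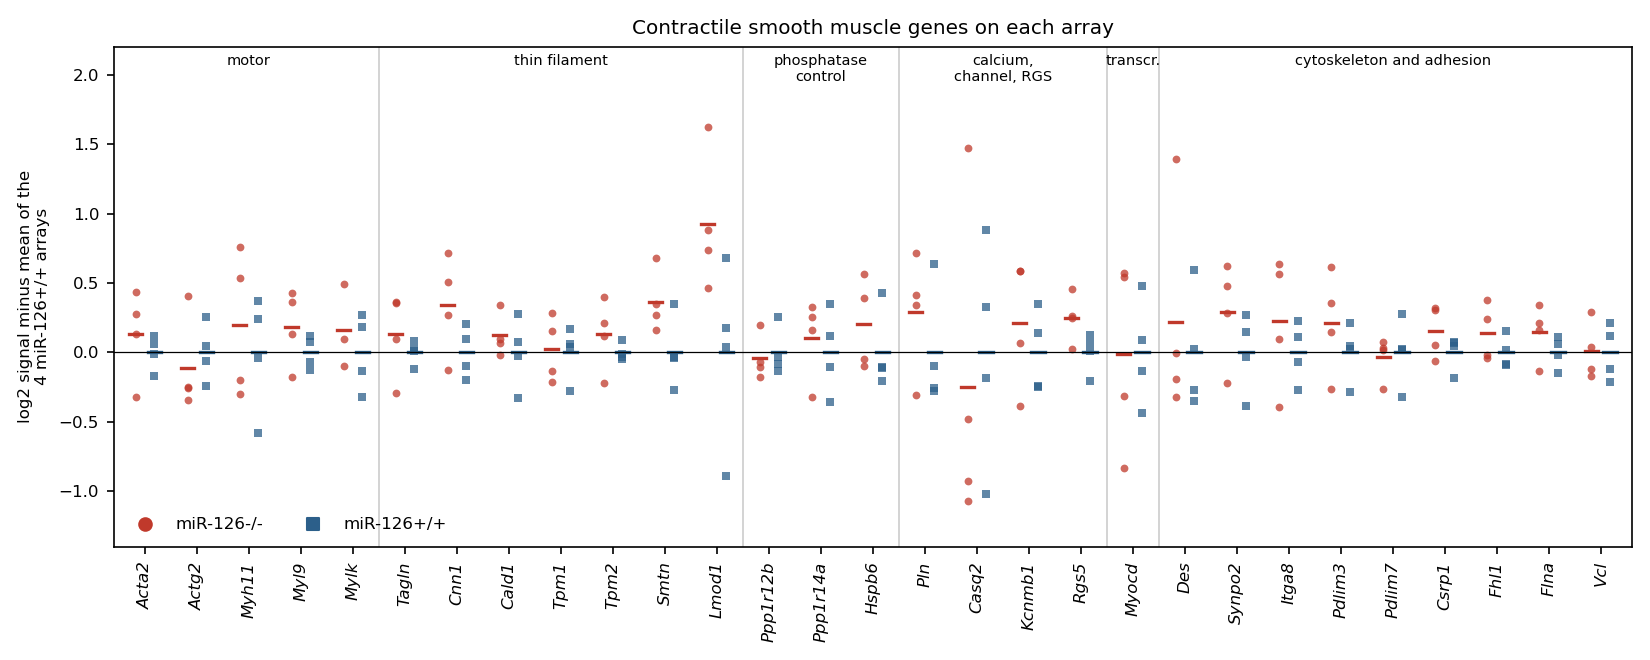
Log2 signal of the 29 contractile genes on each array, minus the mean of the 4 miR-126+/+ arrays, with miR-126-/- arrays as circles on the left of each gene and miR-126+/+ arrays as squares on the right, and a bar at each group's mean. Groups overlap for every gene, and Lmod1, Casq2, Des and Myocd spread the most.

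The genes of the motor itself were within the spread between mice. Acta2, smooth muscle alpha-actin, was 7.19, 7.94, 7.64 and 7.79 in miR-126-/- mice, against 7.57, 7.34, 7.63 and 7.50 in miR-126+/+ mice. Both the lowest and the highest value were those of miR-126-/- mice, and the difference was 0.13 ± 0.17 (SE). This probe was spotted 10 times. Over all its spots, flagged ones included, the SD between spots was 0.040 to 0.149 on each array, against an SD between mice of 0.308 in miR-126-/- and 0.123 in miR-126+/+ mice. Myh11, the smooth muscle myosin heavy chain, was 3.33, 4.29, 3.23 and 4.07 in miR-126-/- mice, against 3.78, 2.96, 3.49 and 3.91 in miR-126+/+ mice. Its groups interleaved, and the difference was 0.20 ± 0.30. Myl9, the regulatory light chain whose CArG box is shown above, gave 0.19 ± 0.15. Actg2, the gamma-actin typical of visceral smooth muscle, gave -0.11 ± 0.19, lower on 3 miR-126-/- arrays and highest of all on miR-126-/- 2 at 4.12. Mylk, the kinase that starts contraction, has 1 probe, whose spot on miR-126-/- 4 was left out. On the remaining 7 arrays it was 0.70, 1.29 and 0.90 in miR-126-/- mice, against 0.66, 0.48, 0.98 and 1.07 in miR-126+/+ mice, a difference of 0.16 ± 0.20.

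Thin filament regulators held the 3 largest differences of the group. By the probe that stands for each gene, all 7 had a difference above 0. Lmod1, leiomodin 1, which nucleates actin filaments (probe chr1:137264581-137264640, plus strand, mm9), was -1.54, -0.79, -1.68 and -1.96 in miR-126-/- mice, against -2.25, -3.31, -2.38 and -1.74 in miR-126+/+ mice. The lowest miR-126-/- value lay below the highest miR-126+/+ value, so the groups overlapped by 1 mouse on each side. Lmod1 was 1.90-fold higher (difference 0.93 ± 0.36, 95% interval 0.09 to 1.76), with an unadjusted p of 0.0337 and an adjusted p of 0.433 in limma. Without miR-126+/+ 2, the array with the lowest value, the difference was 0.63.

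Smtn, smoothelin, an actin-binding protein of fully contractile cells, was 5.02, 5.54, 5.13 and 5.21 in miR-126-/- mice, against 4.83, 4.59, 4.82 and 5.21 in miR-126+/+ mice. Only miR-126+/+ 4 reached into the miR-126-/- range, and the difference was 0.37 ± 0.16 (limma, adjusted p = 0.500). A second Smtn probe gave 0.27 ± 0.14. Cnn1, calponin, which restrains the myosin motor, was 5.25, 6.10, 5.64 and 5.88 in miR-126-/- mice, against 5.58, 5.28, 5.18 and 5.47 in miR-126+/+ mice. Here miR-126-/- 1 was the only miR-126-/- array inside the miR-126+/+ range, and the difference was 0.34 ± 0.19. The other thin filament genes differed by less than their standard errors or close to them: Tagln, transgelin, by 0.13 ± 0.15, Tpm2, beta-tropomyosin, by 0.13 ± 0.13, Cald1, caldesmon, by 0.12 ± 0.15 and Tpm1, alpha-tropomyosin, by 0.02 ± 0.15. A second probe gave -0.01 ± 0.14 for Cald1 and 0.08 ± 0.14 for Tpm2, and further Tpm1 probes are given below.

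For all 3 genes grouped here under myosin phosphatase control and relaxation the 95% interval included 0. Hspb6, a small heat shock protein linked to relaxation, gave 0.20 ± 0.20. Ppp1r14a, an inhibitor of the phosphatase, gave 0.11 ± 0.19. Ppp1r12b, a targeting subunit, gave -0.04 ± 0.12 by the 1 of its 2 probes that was well above background on enough arrays. Of the genes of calcium, channel and G protein control, Rgs5, a regulator of G protein signalling found in pericytes and arterial smooth muscle, had the tightest values. It was 3.41, 3.84, 3.64 and 3.63 in miR-126-/- mice, against 3.45, 3.18, 3.51 and 3.39 in miR-126+/+ mice. Only miR-126-/- 1 fell inside the miR-126+/+ range, and the difference was 0.25 ± 0.12 (limma, adjusted p = 0.551). Pln, phospholamban, the brake on the calcium pump of the sarcoplasmic reticulum, gave 0.29 ± 0.27, and Kcnmb1, a subunit of the large-conductance potassium channel, gave 0.21 ± 0.25.

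Myocd, the coactivator myocardin, was -0.67, 0.73, -0.15 and 0.70 in miR-126-/- mice, against 0.64, 0.03, 0.25 and -0.27 in miR-126+/+ mice. The miR-126-/- values span the whole miR-126+/+ range on both sides, and the difference was -0.01 ± 0.35, with an interval from -0.81 to 0.79.

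Most cytoskeleton and adhesion genes had small differences above 0. Itga8, the integrin alpha 8 chain, gave 0.23 ± 0.24, Pdlim3, a Z-line adaptor, 0.21 ± 0.20, and Synpo2, a partner of actin bundles, 0.29 ± 0.21. The abundant Flna, filamin A, and Csrp1, a LIM protein, gave 0.15 ± 0.12 each, and Fhl1, another LIM protein, 0.14 ± 0.12. Vcl, vinculin, which links actin to adhesion sites, gave 0.01 ± 0.14, and Pdlim7 gave -0.04 ± 0.14. Des, the intermediate filament desmin, gave 0.22 ± 0.40, the widest interval of this set.

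**Figure D2:**
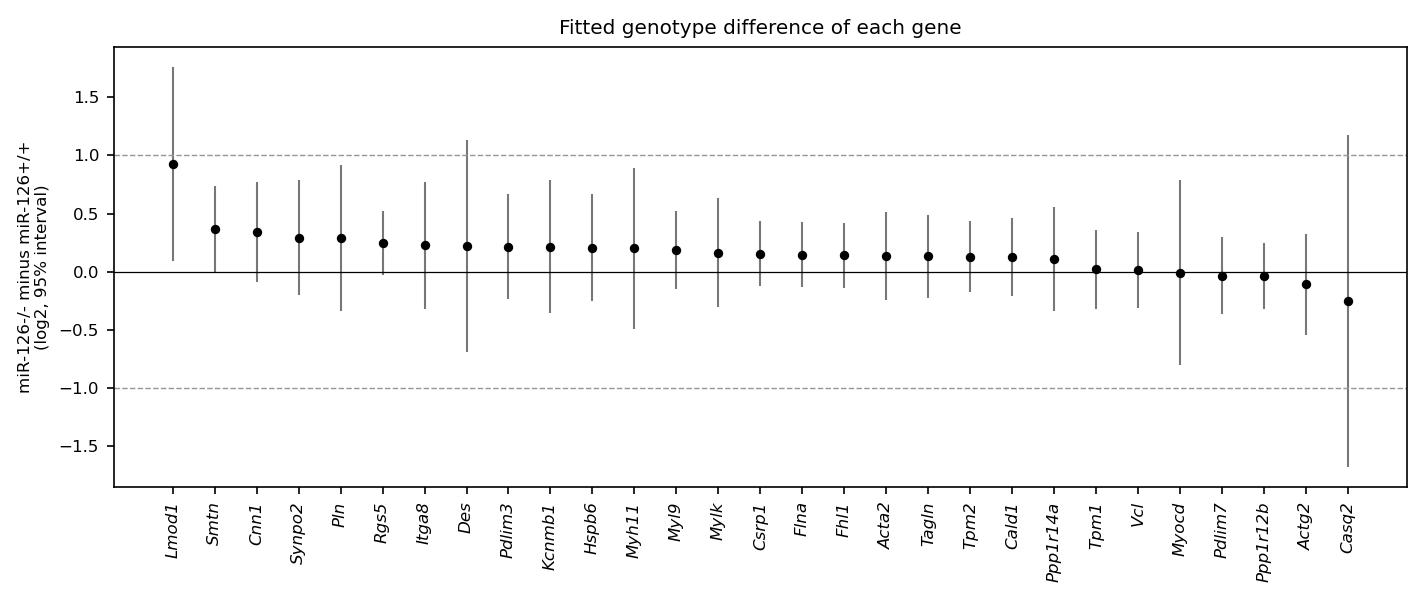
Fitted difference (miR-126-/- minus miR-126+/+, log2) of each contractile gene with its 95% interval, ordered by size, with dashed lines at 1 log2 unit. Intervals of 28 genes include 0, that of Lmod1 runs from 0.09 to 1.76, and 3 reach past a dashed line.

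The dim area decided the readings of 3 genes. It spans grid rows 55 to 100 and columns 56 to 70 of array miR-126-/- 4, and held 360 spots that were well above background on the other 7 arrays. Their median signal on this array was 4.04 log2 units below the mean of the others, and 68.9% were lower by at least 1 unit, against 1.3% of 821 such spots in a frame of 10 rows and columns around it. The Vcl spot at row 74 read 17.9 intensity units on miR-126-/- 4, against 4643.0, 5766.5 and 4978.8 units on the other miR-126-/- arrays and 3546.6 to 5144.5 units on miR-126+/+ arrays. The Synpo2 spot at row 91 read 29.8 units, against 3148.0, 7349.2 and 5921.0 units on the other miR-126-/- arrays and 2742.2 to 6726.6 units on miR-126+/+ arrays. The Mylk spot at row 97, closest to the lower border, read 90.6 units, against 1158.8, 1627.0 and 1330.3 units on the other miR-126-/- arrays and 980.0 to 1544.8 units on miR-126+/+ arrays. The scanner software marked none of these 3 spots as an outlier.

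Signal was not lost at the member spot nearest to the area. A Des spot in row 101, 1 row below the area, had a log2 signal of 0.01 on the same array, where the other 9 Des spots ran from -0.22 to 0.03. With the area kept, the differences were -1.80 for Vcl, -1.72 for Synpo2 and -0.74 for Mylk, and 21 members had a difference above 0. With a narrower area that keeps the Mylk spot, Mylk gave -0.74 as well. For Vcl and Synpo2 the next brightest probe of the gene took the place of the lost one, so the differences of 0.01 and 0.29 given above come from dimmer probes. On the 7 arrays that kept them, the lost probes gave 0.17 ± 0.13 for Vcl and 0.07 ± 0.33 for Synpo2.

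**Figure D3:**
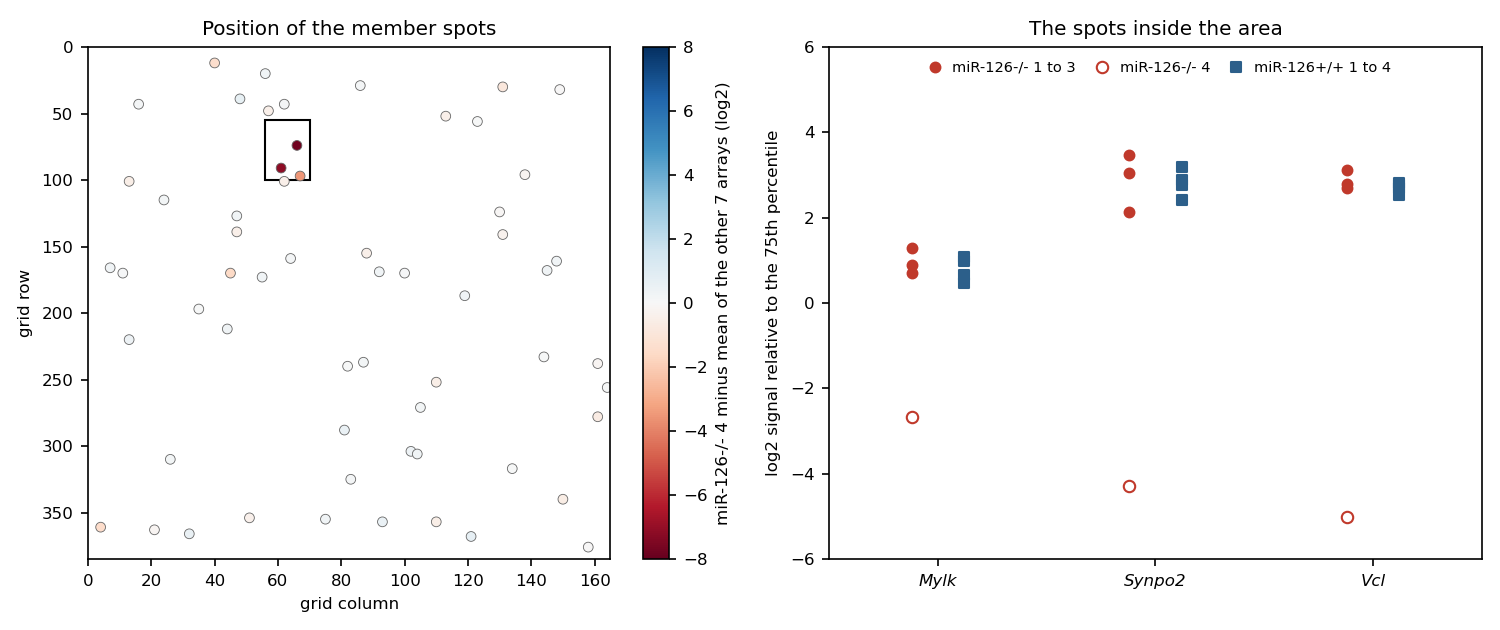
Left, grid position of all 60 member spots, coloured by the log2 signal of miR-126-/- 4 minus the mean of the other 7 arrays, with the dim area outlined. Right, log2 signal relative to the 75th percentile of the 3 spots inside it, with miR-126-/- arrays left (miR-126-/- 4 as an open circle) and miR-126+/+ arrays right. The open circles lie at -2.67, -4.28 and -5.02, below all other arrays.

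Several members had more than 1 probe. Of 41 member probes that entered, 0 passed in limma (0.0431% of 32480 probes did) and 3 had an unadjusted p under 0.05 (9.96% of probes). A Synpo2 probe, shown above, was -3.31, -2.69, -3.32 and -2.71 in miR-126-/- mice, against -3.67, -3.79, -3.67 and -3.37 in miR-126+/+ mice. All miR-126-/- values lay above, as was so for 3.61% of probes, and the difference was 0.62 ± 0.19 (adjusted p = 0.313 over all probes in limma). It was the dimmest Synpo2 probe, and the other Synpo2 probes gave 0.29 and, without miR-126-/- 4, 0.07. A Pdlim7 probe, assigned to another transcript than the brightest one, was 0.12, 0.10, -0.19 and -0.39 in miR-126-/- mice, against 0.49, 0.77, 0.31 and 0.19 in miR-126+/+ mice. All miR-126-/- values lay below, as for 2.44% of probes, and the difference was -0.53 ± 0.17 (adjusted p = 0.333 in limma), while the other Pdlim7 probes gave 0.23 and -0.04. Differences between probes of a gene were not tested.

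**Figure D4:**
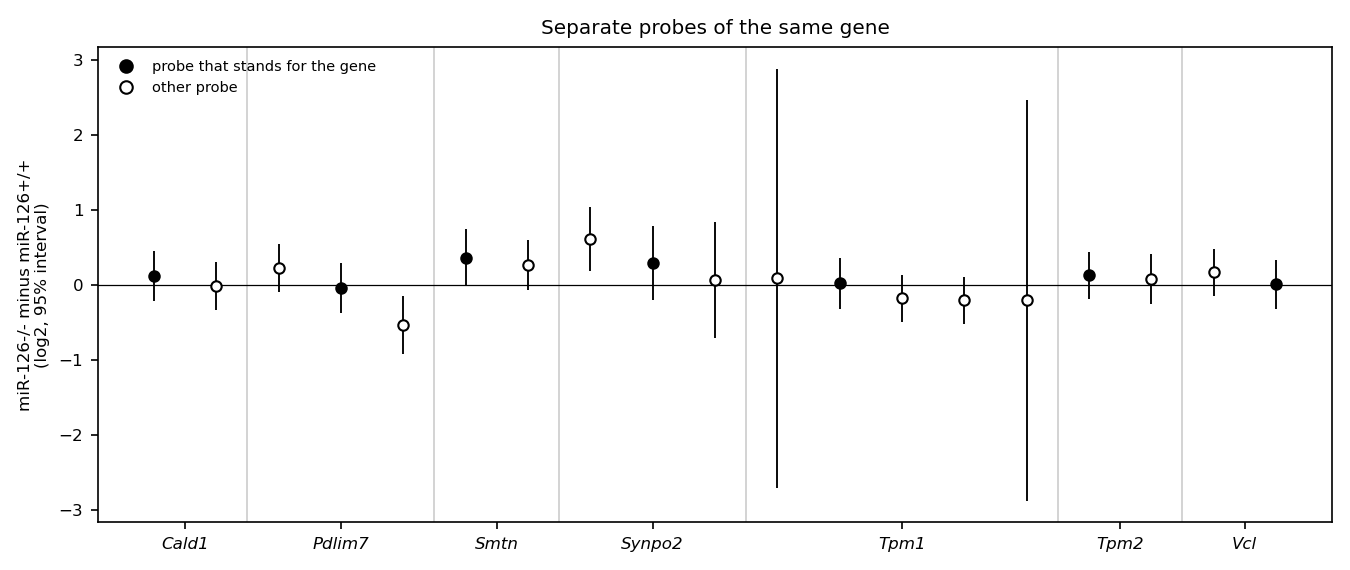
Fitted difference (miR-126-/- minus miR-126+/+, log2, 95% interval) of each probe of the 7 genes with more than 1 entering probe. Filled points stand for the gene in the main comparison, the Synpo2 probe at 0.62 and the Pdlim7 probe at -0.53 have intervals that leave out 0, and 2 Tpm1 probes have very wide intervals.

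Some members are also made by striated muscle, and skeletal muscle adjoins the carotid artery. The mean of 29 skeletal muscle marker genes, each centred over the 8 arrays, was 2.75 on miR-126-/- 1 and -1.25 to 0.10 on the other miR-126-/- arrays, and 2.18 on miR-126+/+ 2 and -1.57 to 0.25 on the other miR-126+/+ arrays. None of the 32 listed markers was below background throughout, and 27 were well above it on all arrays. Casq2, the calcium store protein of heart and slow muscle, was -0.17, -2.71, -2.12 and -2.57 in miR-126-/- mice, against -1.31, -0.76, -2.66 and -1.83 in miR-126+/+ mice. Its highest values stood on the same 2 arrays, and the difference was -0.25 ± 0.62. Des was 1.65, 0.06, 0.25 and -0.06 in miR-126-/- mice, against -0.01, 0.85, 0.28 and -0.10 in miR-126+/+ mice, again highest on these 2. Without miR-126-/- 1 its difference was -0.17, without miR-126+/+ 2 it was 0.42, and without both arrays it was 0.03. With the skeletal muscle marker mean as a covariate the Des difference was 0.12.

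The same arrays stood out in 1 part of Tpm1. Its gene has 5 probes, and none of the others is annotated to the transcript of the brightest probe. Of these others, 2 overlap by 46 bases and are annotated to the same transcript. The first was 4.12, 1.59, 0.01 and 0.34 in miR-126-/- mice, against 0.48, 4.42, 1.88 and 0.11 in miR-126+/+ mice. The brightest probe varied less, with 3.38, 3.88, 3.46 and 3.75 in miR-126-/- mice, against 3.64, 3.66, 3.32 and 3.77 in miR-126+/+ mice. The overlapping probes thus have their highest values on miR-126-/- 1 and miR-126+/+ 2, and their differences were -0.21 ± 1.16 and 0.09 ± 1.22. The remaining Tpm1 probes were both highest on miR-126+/+ 3, and gave -0.21 ± 0.13 and -0.18 ± 0.14.

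**Figure D5:**
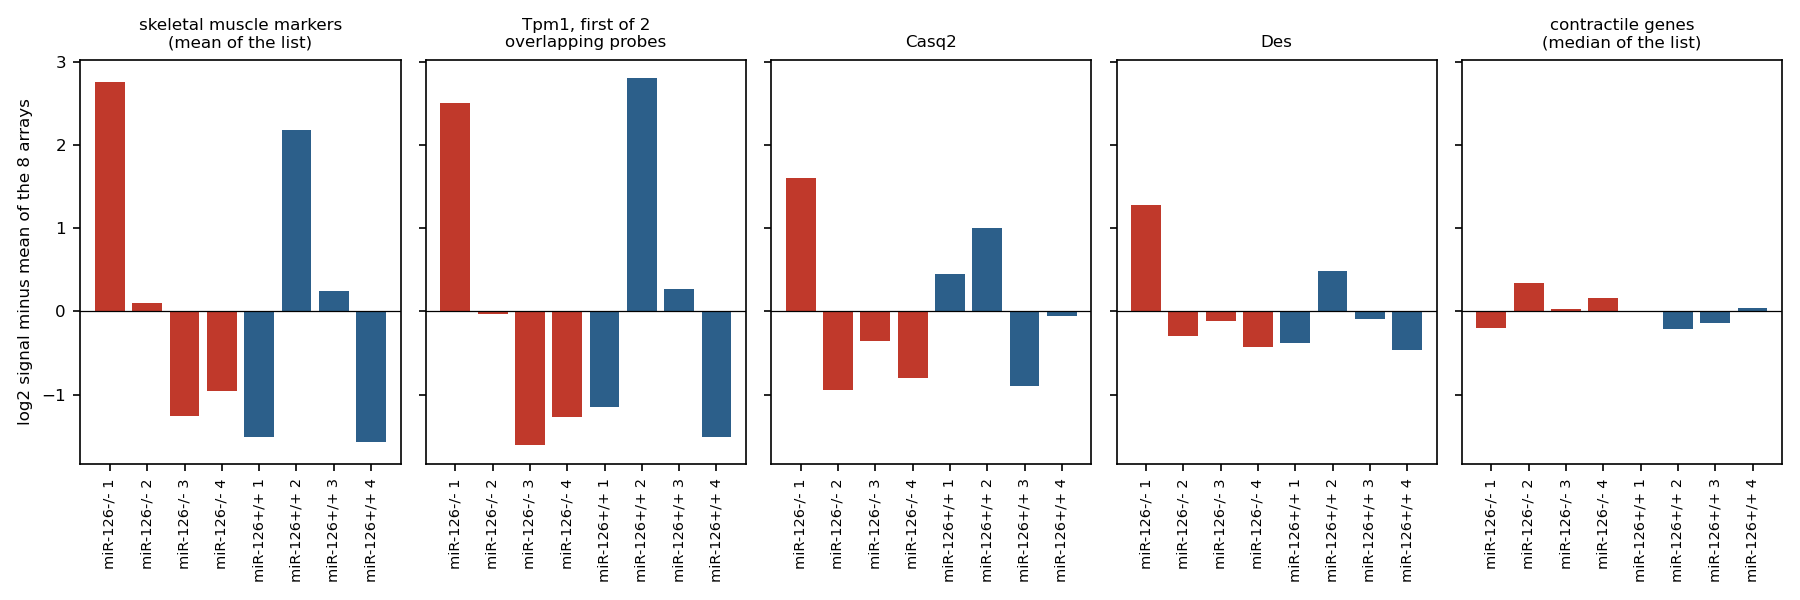
Log2 signal minus the mean of the 8 arrays, with miR-126-/- arrays left and miR-126+/+ arrays right, for the skeletal muscle marker mean, the first overlapping Tpm1 probe, Casq2, Des and the median of the contractile genes. The first 4 panels peak on miR-126-/- 1 and miR-126+/+ 2, where the contractile median is lowest.

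Mice differed in the contractile genes as a group. The median of the members, each centred over the arrays, was -0.20, 0.34, 0.03 and 0.16 on miR-126-/- arrays, against 0.00, -0.22, -0.14 and 0.04 on miR-126+/+ arrays. Array miR-126-/- 2 held the highest of the 8 values for 21 of 28 members measured on all arrays, against 13.2% of all genes, and for 20 of 28 after quantile normalization. Array miR-126+/+ 2 held the lowest value for 10 of 28 and miR-126-/- 1 for 7 of 28, against 19.3% and 13.6% of all genes. These last are the arrays highest in skeletal muscle markers. Without both, 24 of 29 members were above 0 and the median was 0.21, and with the skeletal muscle marker mean as a covariate it was 0.17. Without miR-126-/- 1 alone, 8 members were higher at an unadjusted p under 0.05 (27.6%, against 6.95% of all genes then), namely Acta2, Tagln, Cnn1, Myl9, Smtn, Synpo2, Itga8 and Rgs5, with 0 past the adjusted threshold (lowest adjusted p = 0.309 in limma). Without miR-126-/- 2 the count was 0, against 4.9% of all genes higher then, and the median was 0.06.

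Most markers of some other cell types were higher in miR-126-/- arteries, with 0 past the adjusted threshold. Of the 29 adipocyte markers 28 were higher in miR-126-/- arteries (median 1.27), 23 of them at an unadjusted p under 0.05, against 6.62% of all genes. The mean of the list was 0.19 to 0.91 on miR-126-/- arrays, against -1.14 to 0.13 in miR-126+/+ mice. With that mean as a covariate, 22 members were above 0, the median was 0.10 and 0 had an unadjusted p under 0.05. Because the list mean did not overlap between the genotypes, this fit cannot tell adipocyte content and genotype apart. Of 24 endothelial markers, a list that includes the host gene Egfl7, 23 were higher (median 0.24), 8 of them at an unadjusted p under 0.05, against the same 6.62%. The mean of this list did not overlap between the genotypes either, at -0.04 to 0.30 on miR-126-/- arrays, against -0.30 to -0.06 on miR-126+/+ arrays. Pericyte markers, a list that includes Rgs5, had 8 of 10 higher (median 0.28), with 2 higher at an unadjusted p under 0.05, against 6.62% of all genes. The 4 of smallest p were the proteoglycan gene Cspg4 at 0.39 ± 0.14, Ndufa4l2 at 0.42 ± 0.17, the receptor gene Notch3 at 0.34 ± 0.16 and, lower in miR-126-/- mice, the vitronectin gene Vtn at -0.52 ± 0.25. Of these lists only the adipocyte mean was fitted as a covariate, and the part of endothelial and pericyte cells in the differences of the contractile genes was not tested.

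Other genes of contraction and of its control were spread about 0. Of 20 tested genes of serum response factor and myocardin-related transcription 11 were higher and 9 lower, with a median of 0.01 and 0 at an unadjusted p under 0.05. Of 33 other contraction and relaxation genes 16 were higher and 17 lower (median -0.01). At an unadjusted p under 0.05, 2 were higher (against 6.62% of all genes) and 1 was lower (against 3.61%). They were Agtr1a, an angiotensin II receptor, at 0.91 ± 0.27 (adjusted p = 0.292 in limma), Trpc6, a cation channel, at 0.25 ± 0.10, and Dapk3, a kinase of the myosin light chain, at -0.25 ± 0.10. Agtr1a was 0.28 ± 0.28 in miR-126-/- mice, against -0.63 ± 0.53 in miR-126+/+ mice (SD, n = 4 each). Of 43 other actin cytoskeleton and adhesion genes 16 were higher and 27 lower (median -0.04), with 0 at an unadjusted p under 0.05, the smallest p being that of the dystrophin gene Dmd at 0.41 ± 0.19.

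Genes that smooth muscle cells raise when they leave the contractile state were evenly split. The 24 tested divided into 12 higher and 12 lower (median -0.00). At an unadjusted p under 0.05, the proteoglycan gene Dcn (-0.84 ± 0.20, adjusted p = 0.207 in limma) and the fibronectin gene Fn1 (-0.77 ± 0.31) were lower and the collagen gene Col3a1 (0.33 ± 0.14) was higher in miR-126-/- arteries. Over all genes, 3.61% were lower and 6.62% higher at that threshold. Dcn and Col3a1 are also in the list of fibroblast and adventitia markers, and bulk RNA does not tell which cells their signal came from. Of that list 10 of 18 were higher (median 0.03), and the smallest p was that of the gelsolin gene Gsn at -0.76 ± 0.10 (adjusted p = 0.0549 in limma). Macrophage markers had 8 of 18 higher (median -0.02), Schwann cell markers 8 of 16 (median -0.00) and heart muscle markers 7 of 8 (median 0.53), with the heart list highest on miR-126-/- 1 at 2.09 and its marker Myl7 well above background on no array. Over all these lists, 0 genes passed the adjusted threshold in limma.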

How the data were processed

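Expression was measured with 1-colour Agilent mouse arrays, 100 ng of total RNA per mouse, per the labels' protocols. Per the file headers, the deposited intensity values are processed signals, background-subtracted on a linear scale (Agilent Feature Extraction 10.7.3.1 per the submitters' processing notes). The authors' deposited table holds the same intensity values, within 0.1 log2 units for at least 99.92% of probes.

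Control and outlier spots were left out, as were spots of the dim area, spots of a probe were averaged on the log2 scale, and the array's 75th percentile was subtracted. A probe entered when well above background on at least 3 arrays of a genotype (32480 probes). Each gene took its brightest probe with a value on all arrays, or else its brightest (23828 genes). Names came from RefSeq accessions for 47.4% of probes and otherwise from the files, and members kept the files' names. limma 3.58.1 in R 4.3.3 compared the genotypes (6 residual degrees of freedom, Benjamini-Hochberg over all genes, threshold 0.05). The fit was also run on simulated data with independent noise for each gene and array. That run cannot show how the fit behaves where genes vary together between mice. Python 3.11.15 drew the figures.

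The text names all 29 members, Egfl7 and Apoe, and up to 4 genes of smallest unadjusted p from each other list. The members, lists and dim area were chosen with earlier results of these data known. No source says that replicate numbers pair mice: same-numbered arrays correlated at -0.307 to 0.214 in their deviations from group means, over 0.1 for 1 of 4 pairs. The labels give 4 mice per genotype.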

Additional observations from a re-analysis of the deposited data

Results flagged for a closer look

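Among 57 sets of 4 arrays (each member in each genotype), 3 held an array whose gap to the nearest of the others, over the range of the 4, was above the 95% critical value of Dixon's test for 4 samples. Chance gives about 1 in 20 such sets. Actg2 stood at 4.12 on miR-126-/- 2, where the other miR-126-/- arrays ran from 3.38 to 3.47. Hspb6 stood at 3.19 on miR-126+/+ 4, where the other miR-126+/+ arrays ran from 2.55 to 2.65. Csrp1 stood at 6.93 on miR-126+/+ 2, where the other miR-126+/+ arrays ran from 7.16 to 7.19.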

How the results depend on the processing

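In 25 alternatives, 0 of the 29 members passed the adjusted threshold in limma (lowest adjusted p = 0.236, without miR-126+/+ 4), 21 to 25 were above 0, and their median difference was 0.06 to 0.25. Members at an unadjusted p under 0.05 numbered 3 (10.3%) with normexp background correction (10.8% of all genes) or the skeletal muscle marker mean as a covariate (10.4%), 2 (6.9%) with the mean of a gene's probes (10.2%), an intensity trend (10.1%) or array weights (14%), and 0 with the adipocyte marker mean as a covariate (4.65%). Leaving out 1 array gave 0 to 8. Over all genes, 31 were called, against 13 with no filter on dim probes, 11 with the mean of a gene's probes, 82 with array weights, 14 with the skeletal muscle covariate, and 0 to 74 when leaving out 1 array. The count was 0 in limma with the adipocyte covariate (1107 at an unadjusted p under 0.05), without both miR-126-/- 1 and miR-126+/+ 2 (2041) and without miR-126-/- 2 (1898). With the replicate number as a block, 0 genes were called (2232 at an unadjusted p under 0.05) and 0 members had an unadjusted p under 0.05. No source says that the numbers pair mice, and the correlations between same-numbered arrays cannot exclude it. Signs changed with the adipocyte covariate for Actg2 (0.11), Hspb6 (-0.15), Itga8 (-0.13), Kcnmb1 (-0.11), Myocd (0.23), Pdlim7 (0.077), Ppp1r12b (0.097), Ppp1r14a (-0.028), Synpo2 (-0.055) and Tpm1 (-0.20), with the dim area kept for Mylk (-0.74), Synpo2 (-1.72) and Vcl (-1.80), and with a narrower area for Mylk (-0.74). Near 0, they changed for Myocd with normexp (0.067), the skeletal muscle covariate (0.036) and both arrays out (0.22), for Vcl with both arrays out (-0.016), quantile normalization (-0.011) and the percentile over detected probes (-0.0032), for Pdlim7 (0.012) and Ppp1r14a (-0.0041) with array weights, and for Tpm1 with the mean of its probes (-0.096). Leaving out 1 array gave -0.83 to 0.041 for Casq2, -0.17 to 0.42 for Des, -0.20 to 0.27 for Myocd, -0.14 to 0.058 for Pdlim7, -0.12 to 0.045 for Ppp1r12b, -0.014 to 0.25 for Ppp1r14a, -0.070 to 0.099 for Tpm1 and -0.083 to 0.17 for Vcl. The adipocyte marker mean did not overlap between the genotypes, so the fit with that covariate cannot tell adipocyte content and genotype apart. The causes were not tested.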
